A study of Mus musculus with 36 samples.

Results

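The comparison described here is that of the Ikaros line with the Control line at 0 h, both made from B3, a mouse line with the features of early pre-B cells, the point of the time course before the drug was given. It rests on 6 of the 36 DNase-seq libraries, 3 per line, chosen by their labels alone, and covers all 52788 DNase hypersensitive sites (DHS) of the table. The Ikaros line carried an MSCV retroviral vector encoding HA-tagged Ikaros fused to ERt2, a hormone-binding domain that keeps its partner out of the nucleus until 4-hydroxytamoxifen (4-OHT) is added, followed by IRES-GFP. The Control line carried the same vector with ERt2 and IRES-GFP but no Ikaros. Per the study's methods, both lines were sorted on GFP after transduction, expanded and frozen, so that each is 1 transduced population. The labels give IMDM with FCS as the medium of all samples. The labels name 0.5 uM 4-OHT for all samples, whereas by the methods no drug was added to cells taken at 0 h, which were a separate collection. The replicates are numbered 4, 5 and 6 and are labelled as batches 11, 12 and 13, so each batch holds 1 Ikaros and 1 Control library of 0 h. The methods describe them as biological replicates from repeated time courses. The limma p-values and SE rest on a spread pooled over the 12 groups of all 36 libraries, and the exact permutation p-values on the 6 libraries of 0 h. Neither measures the spread between independent transductions.

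DNase I cuts DNA most readily where nucleosomes are displaced, and DHS therefore mark promoters, enhancers and insulators in use in a cell. Many promoters of widely used genes lie in CpG islands, stretches rich in G, C and the dinucleotide CpG, whereas enhancers in introns and between genes mostly lie outside them and differ more between cell types. Ikaros, the product of Ikzf1, is a zinc finger transcription factor of lymphoid cells that is known for halting the proliferation of pre-B cells and for moving them to the next stage.

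The DHS below are 7 of those with the largest differences between the lines, and they show in letters how the DHS that were higher in the Ikaros line differed from those that were lower. The sequences are the plus strand of the RefSeq copy of mouse build GRCm38.p6, which has the coordinates of mm10. In the first 3, all higher in the Ikaros line, capitals mark each CpG. A promoter DHS of Slc2a1 is printed whole (chr4:119109110-119109325, 30 CpG in 215 bases), the H3f3a promoter DHS in part (chr1:180813943-180814148, 31 CpG in 205 bases) and the Rcc2 intron DHS whole (chr4:140702675-140702805, 25 CpG in 130 bases).
Slc2a1: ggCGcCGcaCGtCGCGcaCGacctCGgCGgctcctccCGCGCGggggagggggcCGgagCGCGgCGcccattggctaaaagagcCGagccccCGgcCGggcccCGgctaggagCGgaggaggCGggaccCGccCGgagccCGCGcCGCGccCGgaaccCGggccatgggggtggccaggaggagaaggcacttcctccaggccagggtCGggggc
H3f3a: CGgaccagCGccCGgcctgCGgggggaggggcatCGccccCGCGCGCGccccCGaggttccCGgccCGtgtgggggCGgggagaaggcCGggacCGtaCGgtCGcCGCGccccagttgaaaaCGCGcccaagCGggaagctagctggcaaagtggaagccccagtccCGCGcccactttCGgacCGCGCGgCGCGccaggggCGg
Rcc2: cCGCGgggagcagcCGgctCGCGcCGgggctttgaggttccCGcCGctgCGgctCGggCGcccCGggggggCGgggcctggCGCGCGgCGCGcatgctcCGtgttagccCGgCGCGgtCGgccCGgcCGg

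The next pair was lower in the Ikaros line, and capitals again mark each CpG. They are the promoter DHS of Tmem232 (chr17:65541134-65541275, 3 CpG in 141 bases) and an intron DHS of Galntl6 (chr8:57966800-57966940, 3 CpG in 140 bases).
Tmem232: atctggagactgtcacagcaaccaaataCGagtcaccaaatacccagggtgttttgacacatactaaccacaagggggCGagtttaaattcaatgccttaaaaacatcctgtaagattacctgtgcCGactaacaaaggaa
Galntl6: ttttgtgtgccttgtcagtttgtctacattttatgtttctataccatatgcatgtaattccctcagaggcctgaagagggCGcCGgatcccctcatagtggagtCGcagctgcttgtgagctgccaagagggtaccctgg

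Of the last pair, the first is part of the promoter DHS of Igkv15-103, a variable segment of the immunoglobulin kappa light chain (chr6:68437236-68437439, 203 bases), lower in the Ikaros line. Its capitals mark the octamer ATTTGCAT, the element to which OCT factors bind in immunoglobulin promoters. The second is the central 300 bases of a Fli1 intron DHS (chr9:32425520-32425820), higher in the Ikaros line at every time. Its capitals mark the single match, on the minus strand, to the RUNX letters TGTGGTT, the only match there among the EBF, RUNX, PU.1, E2A, Ikaros and ETS motifs. The AP-1 letters TGANTCA, which are not marked, also match near its end (TGAGTCA).
Igkv15-103: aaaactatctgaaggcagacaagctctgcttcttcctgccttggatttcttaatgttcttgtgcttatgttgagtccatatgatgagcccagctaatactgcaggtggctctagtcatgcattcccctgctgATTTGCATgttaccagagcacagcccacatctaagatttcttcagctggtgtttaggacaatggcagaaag
Fli1: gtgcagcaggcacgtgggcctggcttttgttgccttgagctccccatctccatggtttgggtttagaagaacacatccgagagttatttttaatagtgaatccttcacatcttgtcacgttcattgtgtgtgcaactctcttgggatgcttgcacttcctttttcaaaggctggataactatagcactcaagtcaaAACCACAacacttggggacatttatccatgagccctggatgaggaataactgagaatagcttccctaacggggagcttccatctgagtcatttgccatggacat

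Accessibility is given throughout as the deposited log2 value, which is read coverage scaled to DHS length and library depth after noise removal by the authors, so that a difference of 1 is a doubling. The depth per library is not given in the sources used here, and no counting interval can be set. The median over all DHS was 4.06, 4.03 and 4.11 in the Control libraries of 0 h (replicates 4, 5 and 6, the order used from here on) and 4.03, 3.97 and 3.90 in the Ikaros libraries. The SD over DHS was 0.85 to 1.05 in the Ikaros libraries of 0 h against 0.75 to 0.77 in the Control libraries. At 2 to 24 h the order was the opposite, with 0.61 to 0.76 in Ikaros and 0.84 to 1.07 in Control, so that the 0 h Ikaros libraries were the more spread of their time and the later Ikaros libraries the less.

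The labels were checked on Ikzf1, whose coding sequence is in the Ikaros vector. Of the 14 DHS in the gene, 6 lie on coding exons, and all 6 were higher in the Ikaros line. The DHS on the last coding exon (chr11:11768688-11769688) had values of 2.24, 3.25 and 3.09 in Control and 6.62, 6.25 and 6.52 in Ikaros. Its difference was 3.61 ± 0.32 (SE, n = 3 per line, limma adjusted p = 1.77e-07). Each SE given here and below is from the fit to all 36 libraries. The next largest (chr11:11748163-11748716) had 2.68, 3.36 and 3.24 against 6.22, 5.53 and 5.68, a difference of 2.72 (limma adjusted p = 9.08e-07). In both, the lowest Ikaros value lay far above the highest Control value.

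The other 4 exon DHS differed by 1.68 to 2.25. The DHS at chr11:11753826 had 1.87, 3.54 and 2.49 in Control against 4.98, 5.02 and 4.63 in Ikaros (difference 2.25, limma adjusted p = 0.00118), and that at chr11:11761028 had 1.93, 3.09 and 2.62 against 4.95, 4.12 and 4.07 (1.84, limma adjusted p = 0.00278). The calls at chr11:11758180 (2.05, limma adjusted p = 0.0142) and chr11:11707597 (1.68, limma adjusted p = 0.00712) were lost without Control replicate 4, at limma adjusted p = 0.106 and 0.0632, and the first also without Ikaros replicate 4, at limma adjusted p = 0.0783. Of the 8 intron DHS of the gene, which lie outside its coding exons, 1 passed the test, at chr11:11763019-11763622, with 3.28, 4.06 and 3.56 in Control against 4.54, 4.47 and 4.29 in Ikaros (0.81, limma adjusted p = 0.0474). That call was lost on leaving out any of the 6 libraries but Control replicate 5, and with batch as a block (limma adjusted p = 0.0599). The other 7 differed by −0.55 to 0.47, with no call. Reads from the vector and from the gene cannot be told apart on the exons.

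The cell type was checked on promoter DHS of marker genes. Of the 8 pre-B markers, 7 had a promoter DHS, and the median over their 8 DHS was 5.18 to 5.39 in the Ikaros libraries and 4.91 to 5.53 in the Control libraries, with all promoter DHS at a median level of 4.56 over the 30 later libraries and 0 calls by limma between the lines. Of the 9 T cell markers, Gata3, Lck and Tcf7 had a promoter DHS, with medians of 4.14 to 4.91 in Ikaros and 4.05 to 4.57 in Control, and Bcl11b, Cd3d, Cd3e, Cd3g, Cd4 and Cd8a had none. Only Lyz2 of the 8 myeloid markers (3.17 to 3.45 against 2.91 to 3.76), Gp9 and Klf1 of the 7 erythroid and megakaryocyte markers (4.20 to 4.47 against 3.51 to 4.25) and Col1a1 of the 6 fibroblast markers (3.72 to 4.30 against 3.94 to 4.38) had one. Both lines thus held accessible promoters of the pre-B markers. Of the markers of other cells, 1 T cell DHS and 1 erythroid or megakaryocyte DHS were called higher in the Ikaros line, and their part in the results was not tested.

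With no drug, the lines differed at 6787 DHS (12.9% of those tested, limma adjusted p under 0.05), of which 4125 (7.81%) were higher and 2662 (5.04%) lower in the Ikaros line. These 2 sets lay in different parts of the genome. Of the DHS that were higher, 82.1% lay within 1000 bp of a transcription start site (TSS) and are called promoter DHS here, 8.48% lay in introns and 7.39% between genes. Of those that were lower, 6.24% were promoter DHS, 44.3% lay in introns and 41.6% between genes. The count depended on single libraries: it was 4511 without Control replicate 4, 2317 without Control replicate 6 and 4416 without Ikaros replicate 4, and the lower calls fell to 1395, 722 and 1628 in the same order, while the higher calls fell to 1595 without Control replicate 6. The spread behind the test came from all 36 libraries, and a fit of the 6 libraries alone called 2 DHS, with 8917 at an unadjusted p under 0.05.

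All 3 Ikaros values lay above all 3 Control values at 6565 DHS (12.4%) and below them at 5902 (11.2%), together 12467 (23.6%). A total of 5892 DHS (11.2%) were both called and apart in this way.

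Promoter DHS were more accessible in the Ikaros line. The median over the 13657 promoter DHS was 4.41, 4.58 and 4.36 in the Control libraries and 4.81, 4.77 and 4.82 in the Ikaros libraries, without overlap and with the Ikaros library above the Control library in each of the 3 batches (mean difference 0.35, two-sided exact permutation p = 0.1, the smallest that 3 against 3 libraries allow). Of these DHS, 3387 (24.8%) were called higher and 166 (1.22%) lower, against 7.81% and 5.04% of all DHS, and 76.9% had a positive difference.

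DHS in introns and between genes went the other way by a smaller amount. The 18699 intron DHS had medians of 3.96, 3.88 and 4.01 in Control and 3.81, 3.77 and 3.71 in Ikaros (difference −0.19, exact permutation p = 0.1), with 350 (1.87%) called higher and 1180 (6.31%) lower. For the 17388 intergenic DHS the medians were 3.96, 3.87 and 4.01 against 3.79, 3.76 and 3.69 (−0.20, exact permutation p = 0.1), with 305 (1.75%) higher and 1108 (6.37%) lower. In both classes the highest Ikaros library lay below the lowest Control library. The 3044 exon DHS outside promoters followed them, with a median difference of −0.20 and 83 called higher against 208 lower. The gap between promoter and intergenic medians was 0.45, 0.71 and 0.35 in Control (mean 0.50 ± 0.18, SD, n = 3) and 1.01 to 1.13 in Ikaros (1.05 ± 0.064, SD, n = 3). The 30 later libraries spanned 0.43 to 0.93 for Ikaros and 0.55 to 1.06 for Control, so Control replicates 4 and 6 of 0 h lay at the low end of the series, Control replicate 5 within the range of the later libraries, and the 3 Ikaros libraries of 0 h at the high end.

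Within the promoter class, DHS wider than 200 bp differed more often than narrow ones. Of 10165 wide promoter DHS, 3052 (30%) were called higher and 70 (0.689%) lower, with a median difference of 0.38, whereas of 3492 narrow ones 335 (9.59%) were higher and 96 (2.75%) lower, with a median of 0.11. The promoter DHS called higher were CpG-rich and mostly sat on the start itself: their median GC content was 65.8%, they held a median of 51 CpG, and 85.7% overlapped a TSS, against 59.1%, 29 CpG and 65.9% for all promoter DHS. The 166 called lower had a median GC content of 49.7% and 3 CpG, and 24.1% of them overlapped a TSS.

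The calls also differed in base composition. The DHS called higher had a median GC content of 64.5%, those called lower 47.1% and all DHS 50%. Over deciles of GC content the median difference rose from −0.28 in the lowest (24.0 to 40.7%) to 0.61 in the highest (62.6 to 88.5%), and it was 0.015 in the eighth. In the highest decile, in which 88.5% were promoter DHS, 46.8% were called higher and 0.170% lower, and in the lowest decile 0.738% were called higher and 6.80% lower. The library medians in the highest decile were 4.23, 4.60 and 4.23 in Control and 5.02, 4.93 and 4.96 in Ikaros. Control replicate 5 was the nearest of the Control libraries to the Ikaros libraries there and still lay below all 3.

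**Figure D1:**
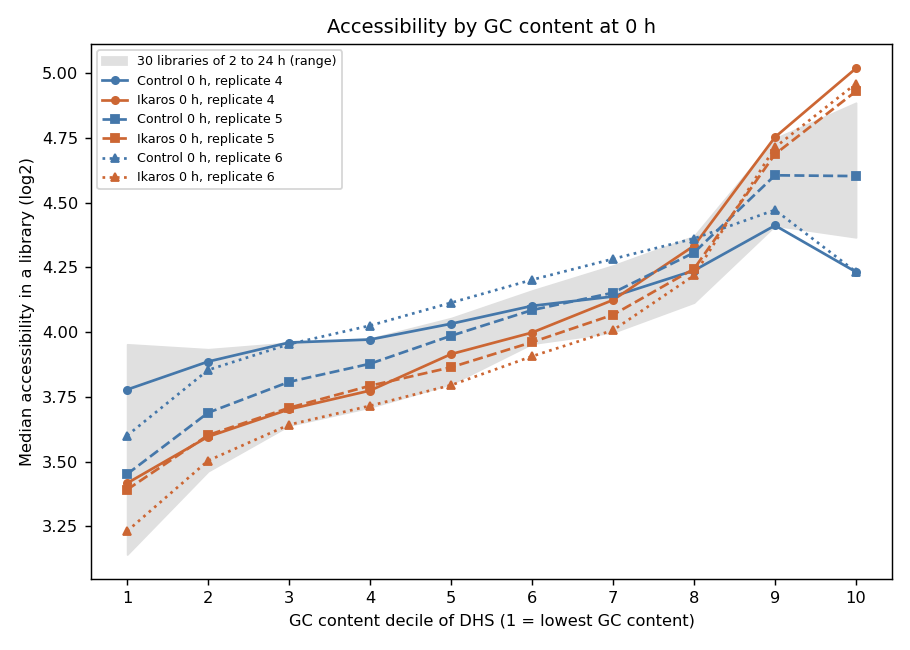
Median accessibility (deposited log2 value, vertical axis) of the DHS in each decile of GC content (horizontal axis) for the 6 libraries of 0 h, as 1 line per library, with a grey band for the range of the 30 libraries of 2 to 24 h. In the highest decile the 3 Ikaros libraries lie at 4.93 to 5.02 and the 3 Control libraries at 4.23 to 4.60, and in the lowest decile the order is turned.

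The rise with GC content was present in every class. Among promoter DHS of at least 70% GC (n = 1396), the library medians were 3.72, 4.18 and 3.73 in Control and 4.88, 4.71 and 4.67 in Ikaros, the median difference was 0.89, and 63.7% were called higher with none lower. DHS of that GC content were few outside promoters, but they differed by about as much: the 38 in introns had medians of 3.76, 4.41 and 4.01 in Control and 5.09, 4.91 and 4.67 in Ikaros (17 called higher), and the 36 between genes had a median difference of 0.77 (12 called higher). At under 40% GC all 4 classes were lower in Ikaros, by medians of −0.21 (promoter), −0.30 (exon), −0.30 (intron) and −0.28 (intergenic). Promoters and other DHS parted in the middle of the range, where at 50 to 55% GC the median was 0.088 for promoter DHS and −0.17 for intron and intergenic DHS.

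**Figure D2:**
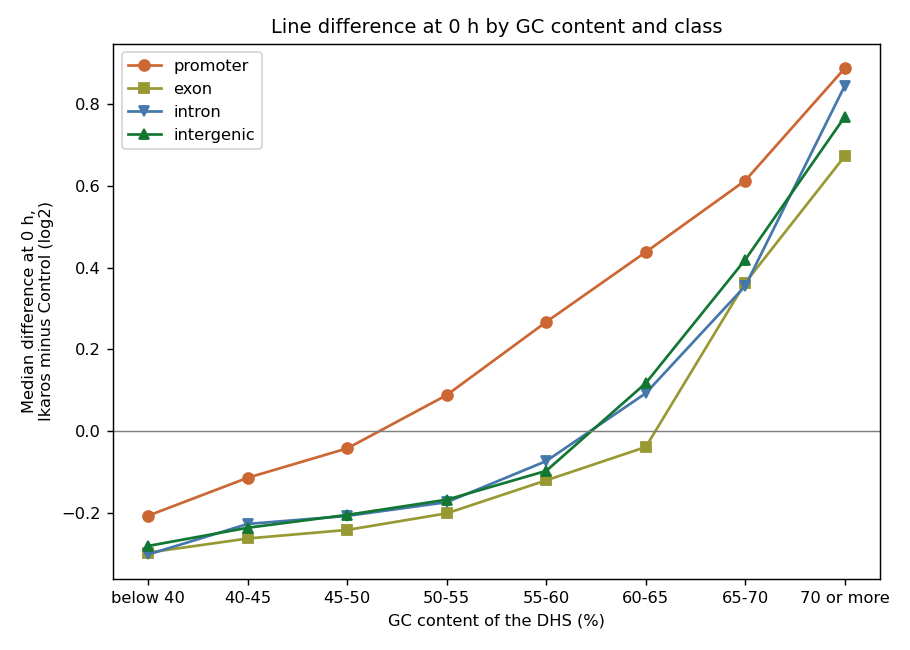
Median Ikaros minus Control difference at 0 h (log2, vertical axis) by GC content of the DHS (bins on the horizontal axis), with 1 line each for promoter, exon, intron and intergenic DHS. All 4 lines rise with GC content, from between −0.30 and −0.21 under 40% GC to between 0.67 and 0.89 at 70% GC and above.

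Across the 52788 DHS, the 0 h difference had a Pearson correlation of 0.44 with GC content, 0.42 with the observed over expected CpG ratio, 0.24 with log2 width, 0.19 with level (the mean over the 30 later libraries, which share no library with the difference) and −0.13 with the percent of bases in repeats. These are descriptions across DHS that share the same 6 libraries. The correlation with GC content was 0.63 within promoters but 0.15 within introns and 0.14 between genes. Level mattered less once the class was fixed, at 0.16 for promoter, −0.045 for intron and −0.031 for intergenic DHS.

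The same was seen as 1 slope per library. Accessibility rose by 0.17, 0.38 and 0.20 per 10 points of GC content in the Control libraries and by 0.55, 0.51 and 0.55 in the Ikaros libraries (mean difference 0.29, exact permutation p = 0.1). Per doubling of width it rose by 0.12, 0.17 and 0.10 against 0.26, 0.28 and 0.25 (0.13, exact permutation p = 0.1). Both slopes were steeper in every Ikaros library than in any Control library. The slope on level was 0.96, 0.84 and 0.70 in Control and 1.00, 0.93 and 1.01 in Ikaros, with overlap (0.15, exact permutation p = 0.2), and without Control replicate 6 the difference was 0.081.

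Width counted at medium GC content and not at the top of the range. At 60 to 65% GC the median difference was 0.077 for 1324 narrow DHS and 0.45 for 2732 wide DHS. Of these, 439 narrow and 2487 wide were promoter DHS, with medians of 0.22 and 0.46, so part of the gap went with class. At 70% and above the median over all classes was 0.90 for 577 narrow and 0.88 for 921 wide DHS. At the same high GC content 40.2% of the narrow and 75.4% of the wide DHS were called higher, so equal medians gave unequal counts of calls. Over low, medium and high level the median was 0.89, 0.86 and 0.89 at 70% GC and above and −0.25, −0.35 and −0.31 under 40%. Between these ends the DHS of high level stood apart: at 55 to 60% GC the medians were −0.045, −0.077 and 0.20, and at 60 to 65% GC 0.22, 0.21 and 0.42, in the same order. Class was not held fixed in this split by level.

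When the smooth trend of each library on GC content, level and width was taken out, 1609 DHS were called (931 higher, 678 lower), of which 1285 were among the 6787. Of the 931, 346 were promoter DHS and 585 were not. The DHS that remained called are thus those that differed beyond others of like GC content, width and level. Level here was the mean over all 36 libraries, the 6 of 0 h included. The 183 promoter DHS called lower in this way had a median difference of 0.079 before removal. Over all DHS of a class, the median difference after removal was 0.055 for promoter, −0.011 for intron and −0.022 for intergenic DHS. Before removal these medians were 0.34, −0.19 and −0.19. The trends are a property of the libraries, and whether they arose in the cells or in digestion, fragment selection and sequencing was not tested.

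The following DHS are those with the largest differences in each of the promoter, intron and intergenic classes, 2 in each direction for wide and for narrow DHS, and in all 24 the Ikaros and Control values do not overlap, which the rule required. Of the promoter DHS, that of Slc2a1, which encodes the glucose transporter GLUT1, was the wide one that rose most. Its values were 3.83, 4.33 and 2.03 in Control and 5.84, 5.32 and 5.27 in Ikaros, a difference of 2.08 ± 0.37 (SE, limma adjusted p = 0.000921). That of H3f3a, a gene of the replacement histone H3.3, had 3.67, 4.21 and 2.49 against 5.44, 6.08 and 4.97 (2.04 ± 0.33, SE, limma adjusted p = 0.000468). Control replicate 6 was the lowest library in both. At 2 to 24 h the differences were −0.13 to 0.73 at Slc2a1 and −0.10 to 0.55 at H3f3a, and with the trends removed neither was called (0.86 and 0.94, limma adjusted p = 0.109 and 0.0576). A wider promoter DHS of Slc2a1 lay beside the named one (chr4:119108347-119109048, 701 bp) and was not called. It had 4.85, 4.85 and 4.55 in Control and 5.42, 4.62 and 5.40 in Ikaros, with overlap (0.40, limma adjusted p = 0.157).

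Among narrow promoter DHS, that of Zfx (chrX:94123175-94123305, 71.5% GC), an X-linked zinc finger transcription factor, rose most, with 2.51, 2.40 and 0.30 in Control and 5.16, 4.40 and 4.88 in Ikaros (3.08 ± 0.55, SE, limma adjusted p = 0.000847). It was positive at all later times (0.55 to 2.01) and was still called with the trends removed (2.48, limma adjusted p = 0.0110). The DHS of Smarcc2 (chr10:128459140-128459270, 86.9% GC), a subunit of the BAF chromatin remodelling complex, had 3.13, 2.78 and 0.33 against 6.06, 3.78 and 4.82 (2.80 ± 0.53, SE, limma adjusted p = 0.00140) and was not called with the trends removed (1.21, limma adjusted p = 0.103). Here too Control replicate 6 lay furthest from the Ikaros libraries.

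The promoter DHS that fell most were of other kinds. That of Igkv15-103 (45.3% GC) had 4.13, 3.72 and 4.31 in Control and 2.46, 2.69 and 2.84 in Ikaros (−1.39 ± 0.20, SE, limma adjusted p = 0.000225), and was called with the trends removed (−1.19). The wide DHS next to Gm25783 (chr17:43699227, 44.4% GC) had 4.77, 4.47 and 4.73 against 2.94, 3.77 and 3.30 (−1.32, limma adjusted p = 0.00121). Both sets of Control values lay close together. The narrow ones were those next to Gm15945 (chr15:75660346), with 3.74, 3.95 and 4.33 against 1.47, 0.44 and 3.28 (−2.27, limma adjusted p = 0.00291), and Tmem232, which encodes a transmembrane protein, with 5.33, 3.64 and 4.39 against 1.46, 2.19 and 3.39 (−2.11, limma adjusted p = 0.00342).

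Of the intron DHS, that in Fli1 (chr9:32425408-32425932, 48.9% GC), an ETS transcription factor of blood cells, had one of the smallest spreads. Its values were 3.34, 3.90 and 3.68 in Control and 5.19, 5.00 and 5.26 in Ikaros (1.51 ± 0.21, SE, limma adjusted p = 0.000152), with 1.15 to 1.86 at the later times and 1.67 with the trends removed (limma adjusted p = 5.29e-05). An intron DHS of Rgl1, a RAL exchange factor (chr1:152612620), had 2.64, 3.52 and 3.45 against 5.26, 4.86 and 4.29 (1.60, limma adjusted p = 0.000523) and 0.68 to 1.45 later. Neither is CpG-rich. The narrow ones that rose were of high GC content: that of Rcc2, a chromosomal protein of mitosis (84.6% GC), had 3.35, 3.37 and 2.67 against 6.14, 5.44 and 4.86 (2.35, limma adjusted p = 0.00105, not called with the trends removed, 0.87). That of Bcor, the BCL6 corepressor (chrX:12128699, 69.2% GC), had 0.94, 1.35 and 0.30 against 3.01, 3.82 and 2.90 (2.38, limma adjusted p = 0.0138), a call lost without Control replicate 6 or Ikaros replicate 5 (limma adjusted p = 0.0822 and 0.0563) and with the trends removed.

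Intron DHS that fell were of ordinary GC content, between 45.8 and 51.2%. That of Sytl3, a synaptotagmin-like protein of vesicle traffic (chr17:6691536), had 4.57, 3.69 and 5.03 in Control and 1.96, 1.92 and 3.12 in Ikaros (−2.10, limma adjusted p = 0.000225). That of Rptor, a subunit of the kinase complex mTORC1 (chr11:119618845), had 4.68, 4.54 and 5.00 against 1.35, 3.72 and 3.97 (−1.72, limma adjusted p = 0.00957), a call that was lost without Control replicate 6 (−1.59, limma adjusted p = 0.0564) or Ikaros replicate 4 (−0.89, limma adjusted p = 0.104) and with the trends removed. Ikaros replicate 4 was the lowest library there and in the next pair. The narrow DHS in Galntl6, a glycosyltransferase gene, had 4.49, 4.59 and 4.73 against −0.17, 2.15 and 3.71 (−2.70, limma adjusted p = 0.00157), and that in Gm12239 (chr11:55981795) had 4.23, 3.89 and 5.14 against 0.24, 2.91 and 2.65 (−2.49, limma adjusted p = 0.00138). Without Ikaros replicate 4 they were −1.67 and −1.64, still called.

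Intergenic DHS are named by the nearest gene annotated as protein-coding, which need not be their target. The DHS 34364 bp from Anapc15-ps (chr10:95707815-95708520) had 2.93, 3.51 and 3.22 in Control and 4.81, 4.87 and 4.92 in Ikaros (1.65 ± 0.26, SE, limma adjusted p = 0.000296), with 1.12 to 2.12 later. That 38570 bp from Tmem196 (chr12:119906669) had 3.56, 3.52 and 2.38 against 4.64, 4.62 and 4.75 (1.51, limma adjusted p = 0.00294), with 0.52 to 1.42 later. The 3 Ikaros values were within a narrow range in both. The narrow pair that rose rested on 1 Control library each: 330 bp from Sertad1, a cell cycle regulator (chr7:27490646, 75.4% GC), the values were 4.35, 4.27 and 0.46 against 5.33, 5.58 and 5.17 (2.33, limma adjusted p = 0.00763; 1.05 and limma adjusted p = 0.0835 without Control replicate 6). At 141 bp from the homeobox gene Hoxb8 (chr11:96285456) they were 3.44, 0.26 and 3.23 against 4.46, 5.10 and 4.41 (2.35, limma adjusted p = 0.0441), a call lost without Control replicate 5 (1.32), Control replicate 6 (2.81) or Ikaros replicate 4, 5 or 6 (2.45, 2.13 and 2.47). With the trends removed, neither was called.

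Of the intergenic DHS that fell, the one 166004 bp from the amylase gene Amy2a5 (chr3:113080674, 29.8% GC) had 3.96, 3.70 and 3.78 in Control and 1.80, 2.46 and 2.56 in Ikaros (−1.54, limma adjusted p = 0.000516). The one 7535 bp from Snrpc, which encodes a protein of the U1 splicing particle (chr17:27830477), had 4.98, 3.74 and 5.32 against 1.00, 1.98 and 2.99 (−2.69, limma adjusted p = 0.00145). The Ikaros and Control values each spread over more than 1 unit at the second of these. Another, 547260 bp from the 14-3-3 gene Ywhaq (chr12:21964897), was at low levels in both lines, with 2.77, 1.97 and 2.15 against 0.31, 1.34 and 0.55 (−1.57, limma adjusted p = 0.0241), and was lost without Control replicate 4 (−1.33), Control replicate 6 (−1.64), Ikaros replicate 4 (−1.36) or Ikaros replicate 6 (−1.47), and with the trends removed (−1.68). Repeats made up 100% of the bases of the DHS near Snrpc. Of the other narrow DHS named above that fell, they made up 59.2% at Gm15945, 38.6% at Galntl6 and 0% at Tmem232 and Gm12239. An effect of repeats on read mapping was not tested.

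**Figure D3:**
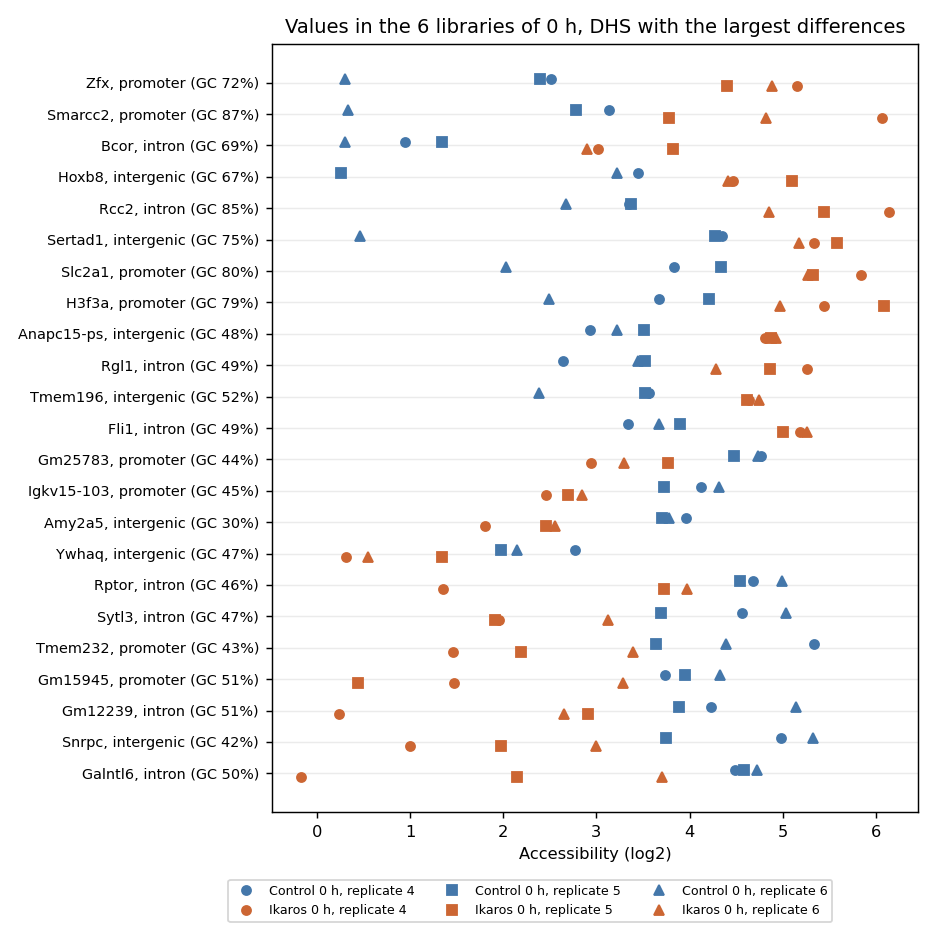
Accessibility (deposited log2 value, horizontal axis) of 23 of the 24 named DHS (rows) in the 3 Ikaros and 3 Control libraries of 0 h, 1 point per library. The values of the lines do not overlap in any row, the rule by which rows were chosen, and single Control values near 0.30 to 0.46 stand out at Zfx, Smarcc2, Sertad1 and, in replicate 5, Hoxb8 (0.26).

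Of 5188 windows of 50 neighbouring DHS, that with the lowest median difference (−0.74) lay over the variable segments of the immunoglobulin kappa light chain, the locus that pre-B cells open and rearrange when they leave the cycling stage. This rank comes from the same 0 h libraries as the values below. It favours negative differences, lower calls and lack of overlap there, and smaller differences at later times. The variable segments (chr6:67555497-70704177, 160 segments, with 10000 bp added on each side) had 43 DHS, and all 43 had a negative difference, from −2.04 to −0.065. Of these, 15 were called lower and 0 higher by limma (34.9% lower against 5.04% of all DHS). The library medians were 4.04, 3.73 and 3.89 in Control and 3.09, 3.06 and 2.96 in Ikaros (difference −0.84, exact permutation p = 0.1), without overlap and lower in Ikaros in each batch. The count of lower calls was 7 without Control replicate 4, 7 without Control replicate 6 and 9 without Ikaros replicate 4.

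These DHS have low GC content (median 43.0%), a feature that moves with the 0 h difference. For scale, the 8906 DHS outside promoters with 39.8 to 45.2% GC had a median difference of −0.24, with 7.39% called lower. With the trends removed, the kappa DHS had a median of −0.51 and 4 were called lower, against −0.75 and 15 before. Of the 18 promoter DHS in the stretch, 11 held the octamer ATTTGCAT on either strand, against 333 (2.44%) of all 13657 promoter DHS. Over the heavy chain variable segments, where the median difference was 0.081, 7 of 60 promoter DHS held it. Among wide intron and intergenic DHS it was in 4.72% of the higher and 2.65% of the lower. Whether the octamer goes with the difference at the kappa DHS was not tested. Besides Igkv15-103, the DHS at the promoters of Gm43586 (chr6:70041000, −1.95, limma adjusted p = 0.000152), Gm5309 (−1.28), Igkv2-112 (−1.25) and Igkv2-116 (−1.07) were among the members with large differences.

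The later libraries differed less over the same stretch. The median difference of the 43 DHS was −0.35, −0.40, 0.18, −0.23 and 0.060 at 2, 6, 12, 18 and 24 h, and 13 of them were called lower at 0 h relative to the mean of those times. Other immunoglobulin loci moved little or held few DHS. The joining and constant segments of kappa (chr6:70722562-70726966) had 2 DHS with a median of −0.81, of which 1 was called lower, the lambda locus 5 with a median of −0.41, and the 104 DHS over the heavy chain variable segments (chr12:113572927-116010093) had a median of 0.081 with 1 called higher and 2 lower.

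**Figure D4:**
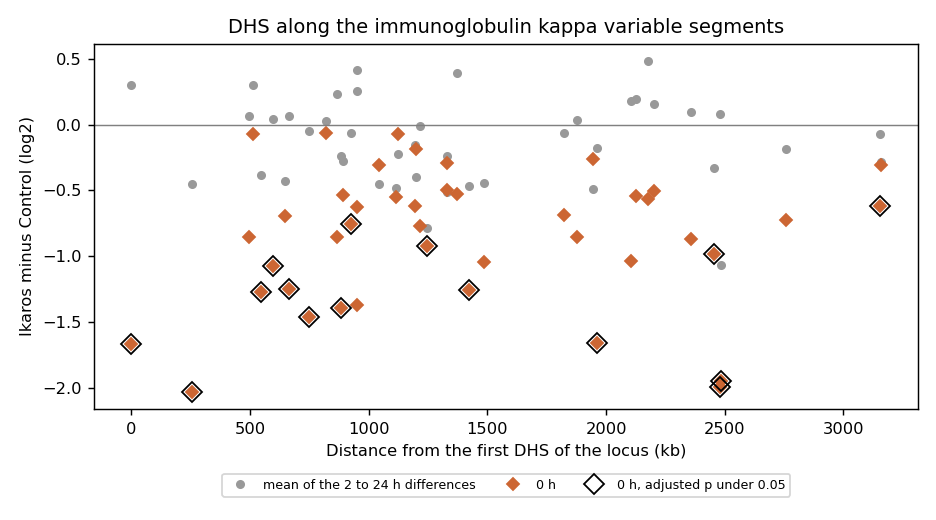
Ikaros minus Control difference (log2, vertical axis) of each DHS along the kappa variable segments (kb from the first DHS, horizontal axis), with diamonds for 0 h, outlined where limma adjusted p was under 0.05, and grey points for the mean of 2 to 24 h. All 43 diamonds lie below 0, between −2.04 and −0.065, and 15 are outlined.

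Promoters of gene groups are set here beside the promoters as a whole, of which 24.8% were called higher with a median difference of 0.34 and a median GC content of 59.1%. Of 25 promoter DHS of B-lineage transcription factors, 8 were higher and none lower (32.0%, median 0.47). That of Myb, a factor of proliferating progenitors (72% GC), had 4.30, 4.32 and 4.14 in Control and 5.58, 5.20 and 5.13 in Ikaros (1.05, limma adjusted p = 0.00049), and that of Tcf12, an E protein, had 3.14, 3.85 and 2.42 against 4.04, 4.67 and 4.49 (1.26, limma adjusted p = 0.00258). With the trends removed the same DHS differed by 0.19 and 0.37. Of the 97 DHS in the bodies of these genes 4 were higher and none lower (median 0.043).

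The 11 promoter DHS of pre-B receptor and recombination genes had no call in either direction by limma and a median of 0.15, with 9 of 11 positive and a median GC content of 54.7%. In the bodies of these genes 3 of 16 DHS were called, all in introns. That of Syk, the kinase downstream of the pre-B receptor, had 3.34, 3.24 and 2.86 in Control and 3.89, 4.04 and 3.99 in Ikaros (0.83, limma adjusted p = 0.0145), and that of Blnk, its adaptor, had 5.00, 4.83 and 4.40 against 5.78, 5.44 and 5.07 (0.69, limma adjusted p = 0.0168). That of Dntt, the template-free polymerase of recombination, went the other way, with 4.00, 3.78 and 4.10 against 3.34, 2.86 and 3.25 (−0.81, limma adjusted p = 0.0150). All 3 calls were lost without Control replicate 6 (0.68, 0.52 and −0.74), and those of Blnk and Dntt also without Ikaros replicate 4 (0.51) and Ikaros replicate 5 (−0.66).

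Among genes of interleukin 7 signalling and the cell cycle, 6 of 21 promoter DHS were higher and none lower (28.6%, median 0.33). That of Cdk4, the cyclin D kinase, had 5.53, 5.36 and 5.08 in Control and 6.55, 6.14 and 6.18 in Ikaros (0.97, limma adjusted p = 0.00131). A DHS in the body of Cdkn1a, the cell cycle inhibitor p21, which is also the promoter DHS of AC167363.2, had 5.22, 5.36 and 5.11 against 6.28, 6.07 and 5.97 (0.87, limma adjusted p = 0.00105). Genes that drive and genes that halt the cycle were therefore both among the DHS that were higher.

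Metabolic and housekeeping groups gave similar shares. Of the promoter DHS, 8 of 31 of glycolysis and glucose uptake (25.8%, median 0.35), 26 of 78 of ribosomal proteins (33.3%, median 0.37) and 24 of 102 of oxidative phosphorylation (23.5%, median 0.31) were higher, with 0, 1 and 0 lower. Examples are Rpl27a, of the large ribosomal subunit, with 5.26, 5.82 and 4.79 in Control and 6.35, 6.40 and 6.26 in Ikaros (1.05, limma adjusted p = 0.00103), and Sdha, of respiratory complex II, whose DHS is shared with Ccdc127, with 5.45, 5.99 and 5.41 against 6.65, 6.21 and 6.35 (0.79, limma adjusted p = 0.00142). That of Eno1, the glycolytic enolase, had 4.82, 5.21 and 4.82 against 5.53, 5.50 and 5.66 (0.61, limma adjusted p = 0.0111). Its call was lost without Control replicate 6 (0.55), and with the trends removed its sign turned (−0.14).

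DHS in the bodies of the same genes are best set beside all intron DHS (median −0.19, 1.87% higher, 6.31% lower). Their medians were −0.097 for glycolysis (0 of 23 higher, 3 lower), −0.34 for ribosomal proteins (1 of 14 higher, 1 lower) and −0.18 for oxidative phosphorylation (2 of 34 higher, 5 lower). An intron DHS of Ndufaf2, an assembly factor of complex I, had 3.83, 2.91 and 3.71 in Control and 1.52, 2.08 and 2.43 in Ikaros (−1.47, limma adjusted p = 0.00342).

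The immediate early genes, which cells switch on within minutes of a stimulus, had the largest share of the lists. Their promoter DHS were also GC-rich, with a median of 64.9%, and of all promoter DHS at 60 to 65% and 65 to 70% GC, 30.9% and 50.1% were called higher. All 27 of their promoter DHS had a positive difference (median 0.57), and 13 (48.1%) were called higher, against 24.8% of all promoter DHS. That of Jund, an AP-1 subunit, had 5.29, 5.60 and 5.06 in Control and 6.31, 6.27 and 6.37 in Ikaros (1.00, limma adjusted p = 0.000296), and that of Fosl2, another AP-1 subunit, had 4.50, 4.47 and 3.98 against 4.99, 5.04 and 5.12 (0.73, limma adjusted p = 0.000836). With the trends removed they differed by 0.23 and 0.04. The 13 DHS in the bodies of these genes had a median of −0.085 and no call by limma in either direction.

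Outside promoters, short motifs were compared among the 16485 wide intron and intergenic DHS, of which 487 were higher and 1094 lower in the Ikaros line. Matches to the letters of lymphoid factors were more frequent in those that were higher. The EBF letters TCCCNNGGG occurred in 13.7% of all, 27.7% of the higher and 8.23% of the lower DHS, the RUNX letters TGTGGTT in 18.8%, 27.5% and 13.0%, the PU.1 letters GAGGAAGT in 8.27%, 11.5% and 4.02%, and the E2A letters CAGCTG in 29.2%, 40.7% and 23.4%. The Ikaros letters TGGGAA varied less, at 40%, 47.0% and 37.8%. The order reversed for the CTCF core AGGGGGC (15.7%, 15.8% and 20.5%) in that it was most frequent in the lower DHS. Both strands were searched, and a match is a run of letters, not a bound site.

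Motifs rich in G and C are more frequent in DHS of high GC content, and the SP/KLF letters GGGCGGG were in 28.5% of the higher and 1.74% of the lower DHS. Motif shares were therefore also read from the calls made with the trends removed, 364 higher and 228 lower. There EBF stood at 22.0% and 12.7%, RUNX at 32.1% and 12.7%, PU.1 at 12.1% and 5.26%, E2A at 38.2% and 25.4% and CTCF at 10.7% and 21.5%. Within 45 to 55% GC, the median of DHS with the RUNX letters minus that of DHS without was 0.060, 0.036 and −0.012 in the Control libraries and 0.14, 0.12 and 0.17 in the Ikaros libraries (difference 0.11, exact permutation p = 0.1). The PU.1 letters gave 0.059, 0.046 and −0.032 against 0.20, 0.16 and 0.19 (0.16, exact permutation p = 0.1), and the CTCF core went the other way, with 0.060, 0.010 and 0.11 against −0.018, −0.0084 and −0.065 (−0.090, exact permutation p = 0.1). In these 3 the lines did not overlap, as in 12 of the 16 motifs searched. Gaps of like size were found for factors that are not lymphoid, 0.13 for SP/KLF and 0.15 for the CRE letters TGACGTCA (each exact permutation p = 0.1). SP/KLF stood at 12.9% and 2.19% of the higher and lower DHS with the trends removed. The ETS letters CCGGAAG, of a family with blood cell members such as Fli1, gave 0.11 (exact permutation p = 0.1).

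In wide promoter DHS (n = 10165) the SP/KLF letters were in 55% of all, 78.5% of the 3052 higher and 5.71% of the 70 lower DHS. The ETS letters were in 26.2%, 30.5% and 5.71%, the NRF1 letters GCGCATG in 10.2%, 14.2% and 2.86%, and the NFY letters CCAAT, which are not GC-rich, in 51.4%, 46.1% and 45.7%. With the trends removed, 284 wide promoter DHS were called higher and 164 lower. In these, SP/KLF stood at 59.9% and 69.5%, ETS at 33.1% and 32.3%, NRF1 at 13.4% and 12.2% and NFY at 45.1% and 65.2%. The order turned for SP/KLF, while ETS and NRF1 differed little. Lower here means lower than DHS of like GC content, width and level. The 183 promoter DHS called lower in this way, narrow ones included, had a median difference of 0.079 before removal. The shares of the 164 are thus not a check on those of the 70.

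Most of the 0 h differences were not seen at the later times. The calls between the lines at 2, 6, 12, 18 and 24 h numbered 103 (0.195%), 305 (0.578%), 694 (1.31%), 369 (0.699%) and 700 (1.33%). The difference at 0 h differed from the mean of the 5 later differences at 7570 DHS (14.3%), upwards at 4166 (7.89%) and downwards at 3404 (6.45%). Without Control replicate 6 these were 2379, 1261 and 1118, and without Control replicate 4 the downward calls were 2106. Both contrasts use the same 0 h libraries, so their calls overlap by construction. Of the 4125 DHS called higher at 0 h, 64.5% (2661) were among the upward calls, 26.2% (1079) had a positive difference at all 5 later times, and the median of their mean later difference was 0.075, whereas it was 0.79 at 0 h. Of the 2662 called lower, 58.1% (1547) were among the downward calls, 21.5% (572) were negative at all later times, and the median moved from −1.02 to −0.046.

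The classes followed. The promoter median, 0.34 at 0 h, was −0.018, 0.078, −0.11, −0.030 and −0.046 at 2, 6, 12, 18 and 24 h, and the intron median, −0.19 at 0 h, was 0.033, −0.012, 0.15, 0.073 and 0.13. The correlation of the difference with GC content, 0.44 at 0 h, was −0.10, 0.05, −0.45, −0.17 and −0.36 at the same times. Within promoters it went from 0.63 at 0 h to 0.11, 0.30, −0.28, 0.060 and −0.093. Over all DHS the sign at 2, 12, 18 and 24 h was thus opposite to that at 0 h, while within promoters this held at 12 and 24 h only. The intergenic medians of 0.026, −0.029, 0.14, 0.049 and 0.11 were close to those of introns.

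**Figure D5:**
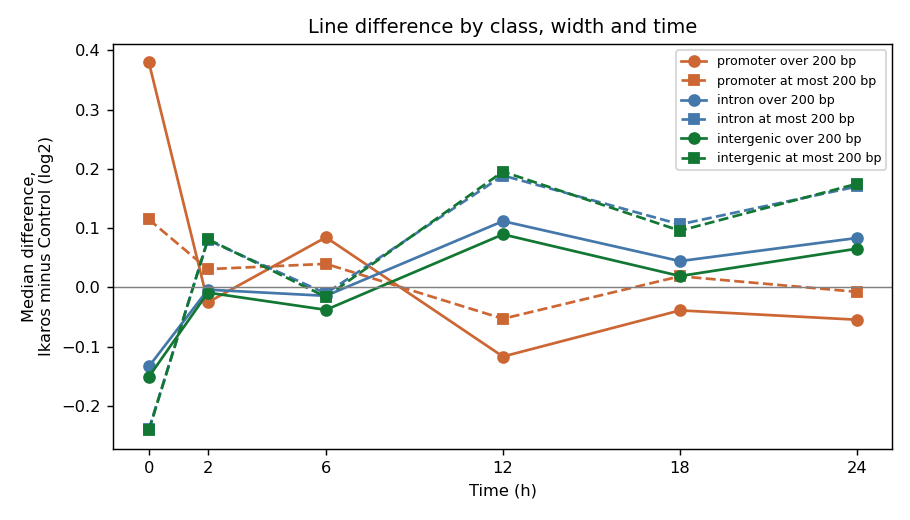
Median Ikaros minus Control difference (log2, vertical axis) of promoter, intron and intergenic DHS, narrow and wide, against time (h, horizontal axis). At 0 h the wide promoter DHS lie at 0.38 and the narrow intron and intergenic DHS at −0.24, and all classes lie closer to 0 at the later times.

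A small set of DHS differed between the lines at every time. A difference of over 1 at all 6 times was seen at 19 DHS higher in Ikaros, 17 of them called at 0 h, and at 2 DHS lower in Ikaros. Of the 19, 5 were on Ikzf1 exons. Others were intron DHS of Fat1 (2.19 at 0 h), Celf2 (1.89), Fli1 (1.51) and 5031425E22Rik (1.48), 3 intron DHS of Tmtc1 (1.50, 1.31 and 1.11), an exon DHS of Cyren (2.15), intergenic DHS near Anapc15-ps (1.65), Prpsap2 (1.45) and Bdnf (1.42), and the promoter DHS of Klra5 (1.02). The 2 that were lower lay in an intron of Tead2 (−1.05) and near Crisp1 (−1.25). These DHS were picked for their values at all times, and the differences are given as a description. At over 0.5 there were 381 higher and 84 lower, of which 109 and 28 were called at 0 h.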

How the data were processed

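DNase-seq libraries were made from 3 Ikaros and 3 Control cultures at each of 6 times. Per the study's methods, nuclei were digested with titrated DNase I, short fragments were selected and sequenced in pairs, and the authors aligned reads to mm10 with Bowtie2, used HOMER to find narrow and broad peaks per replicate, combined these into 1 consensus set, removed blacklisted regions, counted reads per DHS with bedtools and left out low DHS. The submitters' processing notes name Bowtie, HOMER and bedtools without versions. The counts were then scaled for DHS length and library (RPKM, TMM) and passed through ARSyN, which takes structured noise out of the table after modelling the groups. What was deposited is the log2 value after all of this. ARSyN may have lowered the spread within groups, which was not tested. The 12 group means span 6 of 11 possible dimensions, so contrasts between groups are not all independent of each other. The base of the logarithm was read from the values, since base 2 gives a total over DHS of 369487 to 432755 RPM per library and base e 1575620 to 2338650. The depth per library is not given in the sources used here. No per-sample column was unused (0).

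From the deposited log2 values, limma 3.58.1 in R 4.3.3 fitted 12 group means to all 36 libraries (trend = TRUE, two-sided, Benjamini-Hochberg over 52788 DHS, threshold 0.05). The methods state no test for this comparison. Values of 1 number per library were compared by an exact permutation test, whose smallest p for 3 against 3 is 0.1. The fit was tested on simulated data. In all, 19 alternatives to it were run. Python 3.11.15, numpy 2.4.6, pandas 2.3.3 and pysam 0.24.0 served for the rest. Replicate numbers pair the libraries through the batch labels 11, 12 and 13 only. The correlations of same-numbered Ikaros and Control deviations at 0 h were −0.0098, −0.020 and −0.024.

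Classes came from GENCODE vM21 (basic), with promoter DHS within 1000 bp of a TSS and narrow DHS at most 200 bp wide. DHS were named by a rule: among calls whose groups do not overlap, the 2 largest differences per direction, class and width, outside chromosome 18, and all DHS of Ikzf1, with up to 4 members of each of 9 gene lists. Of the 24 DHS named by size, 1 is not reported here. From the list of ribosomal proteins, 11 genes with like symbols were left out. Members, lists and rules were chosen with earlier results of these data known. GC content and sequences were read from GRCm38.p6, and motifs on both strands. Whether file starts count from 0 or 1 is not given in the sources used here, so starts may be 1 bp off.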

Additional observations from a re-analysis of the deposited data

Results flagged for a closer look

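The difference between the lines at 0 h was set against the mean of their differences at 2, 6, 12, 18 and 24 h within the same limma fit. This test of the difference between times passed at 7570 of 52788 DHS and at 17 of the 23 named DHS shown. Among promoter DHS, the 0 h difference exceeded the later mean by 1.72 at Slc2a1, 1.81 at H3f3a, 1.87 at Zfx and 2.39 at Smarcc2, and lay under it at Igkv15-103 (−1.16), Gm25783 (−1.39), Gm15945 (−1.71) and Tmem232 (−2.48). Among intron DHS it was 1.84 at Rcc2, −2.02 at Sytl3, −1.51 at Rptor, −2.49 at Galntl6 and −2.56 at Gm12239. Among intergenic DHS it was 2.36 near Sertad1, −1.81 near Ywhaq, −1.56 near Amy2a5 and −2.45 near Snrpc. Of the Ikzf1 DHS, an intron DHS of 640 bp passed (0.60) and no coding exon DHS did. The DHS of Rgl1, Fli1, Bcor, Anapc15-ps, Tmem196 and Hoxb8 did not pass. Most of these DHS were named for their size at 0 h, which favours a larger difference at 0 h than at other times.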

How the results depend on the processing

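Against 6787 calls at 0 h (4125 higher, 2662 lower), quantile normalization gave 4406 (2881 higher, 1525 lower), removal of the trends with GC content, level and width 1609 (931, 678), a spread per group 1478 (1117, 361), the 6 libraries of 0 h alone 2 (2, 0) and these with the replicate block 1 (1, 0). The replicate block over all groups gave 6125, and the remaining alternatives 6340 to 6918. Leaving out 1 replicate number or library gave 1520 to 8034 calls (779 to 4789 higher, 629 to 3245 lower). For the 0 h difference minus the later mean, against 7570 (4166, 3404), quantile normalization gave 2958 (1624, 1334), trend removal 1057 (567, 490), a spread per group 1712 (1091, 621) and the block 6757, and leaving out 1 gave 656 to 8743 (208 to 4818 higher, 448 to 3925 lower). Quantile normalization moved the median of this contrast over all DHS from −0.12 to 0.015. It also moved the 0 h medians of library differences to −0.059 (intron), −0.066 (intergenic) and 0.35 (promoter minus intergenic), all in the same direction. Of the 24 named DHS, 15 were called after trend removal, 0 with the 0 h libraries alone, with or without the block, and 12 with wide DHS only, in which no narrow DHS is tested. With the block 2 calls among all the DHS named or listed were lost, an Ikzf1 intron DHS and Olfr516 (limma adjusted p = 0.0599 and 0.0603), and no other call changed. The Eno1 promoter turned from 0.61 to −0.14 after trend removal. The chromosome 6 median went from −0.055 to −0.031 with intron and intergenic DHS only and −0.025 after trend removal, and that of chromosome X from 0.10 to 0.00013 and −0.016. The cause was not tested for any of these beyond the construction of the alternative. Depth is unknown, so its limits on the low DHS cannot be given.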

Other observations

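Promoter DHS of the histone and olfactory receptor lists had lower GC content than promoters as a whole, with medians of 49.2% and 42.1% against 59.1%. Of all promoter DHS at 45 to 50% and 40 to 45% GC, 2.17% and 0.529% were called higher. Of 40 promoter DHS of replication-dependent histone genes 2 were higher and 1 lower (5.00% higher against 24.8% of all promoter DHS, median 0.029), with Hist1h4k at 5.36, 4.67 and 4.04 in Control and 5.85, 5.70 and 5.69 in Ikaros (1.06, limma adjusted p = 0.00286). The one that was lower was Hist1h1b, a linker histone gene, with 4.99, 4.60 and 4.55 against 3.43, 3.45 and 4.49 (−0.92, limma adjusted p = 0.00749), lost without Ikaros replicate 4 (−0.75, limma adjusted p = 0.0507). Of 15 promoter DHS of olfactory receptor genes 0 were higher and 2 lower by limma (median −0.22), while an intron DHS of Olfr56 had 3.44, 2.83 and 3.47 in Control and 4.47, 5.13 and 4.48 in Ikaros (1.44, limma adjusted p = 0.00399).

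Differences were also summarised over long stretches. Over 5188 windows of 50 neighbouring DHS, which overlap, the median difference had quartiles of −0.16 and 0.032. The highest window at 0 h (0.37) ran from Chd3 to Eif5a (chr11:69366335-69921924, 12 called higher). Of its 50 DHS, 28 were promoter DHS, and its median GC content was 57.0%. At the later times its median difference was −0.20 to −0.081. The median was positive at all 6 times in 552 windows and negative at all in 615. From Csad to Smug1 (chr15:102178192-103169090) it was 0.30 at 0 h and 0.30 to 0.40 later, and from Cd69 to Ybx3 (chr6:129284287-131404705), which holds natural killer cell receptor genes, 0.22 and 0.28 to 0.70. By chromosome, the library medians relative to all DHS did not overlap between the lines on chromosomes 6 (−0.055), 11 (0.040), 17 (0.026) and 19 (0.021), each with an exact permutation p of 0.1. They overlapped on X (0.10, exact permutation p = 0.4), where the difference was 0.17 without Control replicate 4 and 0.057 without Control replicate 6. Each autosome and X was compared, with no correction for their number. With intron and intergenic DHS only, chromosome 6 stayed apart (−0.031). Chromosomes 11 (0.0057), 17 (−0.0099) and 19 (−0.011) then overlapped (exact permutation p = 0.8, 0.7 and 0.6).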
